A study of Mus musculus with 12 samples.

Results

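The expressed long noncoding RNAs of Ba/F3 cells are described here. They were chosen by their raw counts: they are the 313 rows of the deposited table, of 56748 in all, that carry the biotype lncRNA and a summed raw count of at least 1000 over 12 libraries, with chromosomes X and Y and F630028O10Rik left out. The table lists 11288 lncRNA rows, of which 4793 had at least 1 count. Ba/F3 is a mouse pro-B cell line that normally needs interleukin 3 (IL-3) to grow. All cells carried NRAS G12D and 1 of 4 constructs: ZsGreen alone, a fluorescent protein that served as the control, or ETV6 WT, ETV6 P214L or the double mutant ETV6 I209S P214L, each followed by an internal ribosome entry site and ZsGreen. Sorting on day 0 placed the cells in medium that lacked IL-3, and harvest was on day 3, so the control cells too carried NRAS G12D and lacked IL-3.

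ETV6 is a transcription factor of the ETS family that represses its targets in the nucleus, and the ETS domain binds DNA around the core letters GGAA. Per the study's design text, the P214L change gives rise to a nuclear export sequence, which the I209S change is meant to break, and the question was whether ETV6 I209S P214L gives the expression profile of ETV6 WT. Each group has 3 libraries from a single cell line. The labels do not say whether these came from separate cultures, so p-values measure the spread between these libraries, which may be technical.

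Long noncoding RNAs are transcripts that are not known to code for protein. Some build nuclear bodies: Neat1 is the scaffold of paraspeckles and Malat1 gathers in nuclear speckles. Others are carriers, whose introns or exons hold the small nucleolar RNAs (snoRNAs) that guide ribosomal RNA modification or the hairpins that become microRNAs. Many more are unnamed gene models that start beside, or run opposite to, a protein-coding gene. Sequencing started from poly-A RNA, which selects against transcripts that have no such tail, and small RNAs were not measured. The selection was not complete: rows that hold ribosomal RNA reads took 1.37% to 5.91% of the counts of a library.

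Depth was even, from 14301683 to 18607595 counts per library. The first libraries of ZsGreen, ETV6 WT and ETV6 I209S P214L stood apart: rows that hold ribosomal RNA reads took 2.93%, 1.60% and 1.37% of their counts, against 3.59% to 5.91% in the other 9 libraries. Of 14 B-lineage markers, 12 lay under 1 CPM (counts scaled to library size) on average, and Igll1, Il7r, Ms4a1, Rag1 and Vpreb2 had no count at all, so the labelled pro-B type does not show in most of its markers. The summed level of erythroid markers was 90.1 to 96.4 CPM with ZsGreen, 250.1 to 342 with ETV6 WT, 64.5 to 103 with ETV6 P214L and 257 to 375 with ETV6 I209S P214L; the globin marker Hbb-bt lay under 1 CPM. Mast and basophil markers summed to 1783 to 1875 CPM with ZsGreen, 2334 to 3001 with ETV6 WT, 1728 to 1809 with ETV6 P214L and 2388 to 2920 with ETV6 I209S P214L; of the 7, Cpa3, Fcer1a, Kit and Mcpt8 lay under 1 CPM. ETV6 P214L also differed from ZsGreen in markers: those of neutrophils and monocytes summed to 87.7 to 89 CPM with ZsGreen, 138 to 154 with ETV6 WT, 186 to 251 with ETV6 P214L and 105 to 144 with ETV6 I209S P214L, with Camp, Csf1r, Elane, Ly6c2 and Ly6g under 1 CPM. Megakaryocyte markers summed to 1010 to 1072 CPM in ZsGreen libraries, 756 to 944 in ETV6 WT, 831 to 894 in ETV6 P214L and 649 to 744 in ETV6 I209S P214L, and none of the 6 lay under 1 CPM. The part of these shifts in the changes of long noncoding RNAs was not tested, and in bulk RNA fewer cells of a type cannot be told apart from less RNA per cell.

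By name and position, 226 of the 313 were gene models or clone names, 43 had no symbol, 14 were snoRNA hosts, 3 were microRNA hosts, 8 were named as antisense to another gene, 8 were well-studied nuclear or imprinted transcripts and 11 had another symbol. The spans of 184 overlapped no protein-coding gene, 107 overlapped one on the opposite strand only and 22 on the same strand. A further feature of position was common: 104 started within 1 kb of the start of a protein-coding gene on the other strand. Positions of genes are given in mm39 as the table lists them. Strandedness of the libraries is not known, so counts of overlapping and antisense rows may hold reads of their partners.

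All 313 passed the filter on low counts, and none had a count of 0 in any library. In 1 of them over 50% of the counts came from 1 group. The rows just inside the threshold held 1000 to 1006 counts (ENSMUSG00000121226 to Gm28370) and those just outside 978 to 998 (Gm49602 to Gm11944). Together the 313 took 0.853%, 0.912% and 0.956% of all counts in the ZsGreen libraries, 0.837%, 1.15% and 1.14% in ETV6 WT, 1.03%, 0.967% and 1.02% in ETV6 P214L and 0.874%, 1.25% and 1.24% in ETV6 I209S P214L. The groups overlap on this share, and its lowest values are the first libraries of ETV6 WT, ZsGreen and ETV6 I209S P214L.

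Per length, the median over the 313 was 4.12 FPKM (counts scaled to exonic length and library size, as deposited), against 7.74 for the 11312 protein-coding genes tested. A few carried most of the reads. Malat1 alone held 19.04% of them, the top 5 held 44.3% and the top 50 held 72.4%. The highest levels per length were those of Malat1 (278 FPKM over all libraries), ENSMUSG00000120992 (274), Gm42047 (202) and Gm10076 (130.2). Gm10076 was also the least even of these: its libraries ran from 9.88 to 158 CPM, and the filtered edgeR fit called it in no comparison.

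ETV6 WT changed many of these RNAs and ETV6 P214L few. In a quasi-likelihood model over all genes, 145 of 313 (46.3%) passed an adjusted p of 0.05 between ETV6 WT and ZsGreen, against 37.7% of all 14794 genes tested and 44.9% of the protein-coding genes; these are called changed. Of the 145, 111 were higher and 34 lower with ETV6 WT, where all genes were called higher in 19.5% and lower in 18.2%. The median log2 fold change of the 313 was 0.32, against 0.03 for all genes tested and 0.003 for protein-coding genes. At least 2-fold changes were called in 53 upwards and 10 downwards, against 8.07% of all genes in both directions together.

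ETV6 P214L against ZsGreen gave 25 calls (7.99%, against 5.08% of all genes), 20 higher (background 3.47%) and 5 lower (background 1.61%), with a median log2 fold change of 0.13. Leaving out single libraries moved this count by over 1.5 times: it was 16 without ZsGreen 1, 10 without ETV6 P214L 1, 14 without ETV6 P214L 2 and 11 without ETV6 P214L 3. ETV6 I209S P214L against ZsGreen gave 160 calls (51.1%, against 41.5% of all genes), 117 higher (background 20.8%) and 43 lower (background 20.7%), with a median of 0.33. The excess over all genes depends on the count threshold: with a summed count of at least 500, 202, 28 and 226 of 555 RNAs were called (36.4%, 5.05% and 40.7%), below the shares of all genes. These comparisons share the ZsGreen libraries. Without the first libraries of ZsGreen, ETV6 WT and ETV6 I209S P214L, the counts were 143, 28 and 155. Of these, 115, 21 and 110 were higher and 28, 7 and 45 lower.

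Between constructs, 105 RNAs differed between ETV6 P214L and ETV6 WT (33.5%, against 29.2% of all genes), 36 of them higher and 69 lower with ETV6 P214L (background 14.6% each way), and 119 differed between ETV6 I209S P214L and ETV6 P214L (38%, against 33%), 78 of them higher and 41 lower with the double mutant (background 15.9% and 17.1%). Counting groups whose libraries do not overlap, a looser rule, gave 165 RNAs for ETV6 WT (52.7%, against 46.2% of all genes), 87 for ETV6 P214L (27.8%, against 25.7%) and 169 for ETV6 I209S P214L (54%, against 47.8%) against ZsGreen. It gave 163 for ETV6 P214L against ETV6 WT (52.1%, against 45.4%) and 161 for ETV6 I209S P214L against ETV6 P214L (51.4%, against 48.2%). None was called between ETV6 I209S P214L and ETV6 WT, where 0.0338% of all genes were. A joint test over the 4 groups called 158 (50.5%, against 41%). The counts between constructs moved more without the first libraries of ZsGreen, ETV6 WT and ETV6 I209S P214L. ETV6 P214L against ETV6 WT then gave 129 calls, 32 higher and 97 lower. ETV6 I209S P214L against ETV6 P214L gave 135, 95 higher and 40 lower. Shares of all genes were not counted for that fit.

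**Figure D1:**
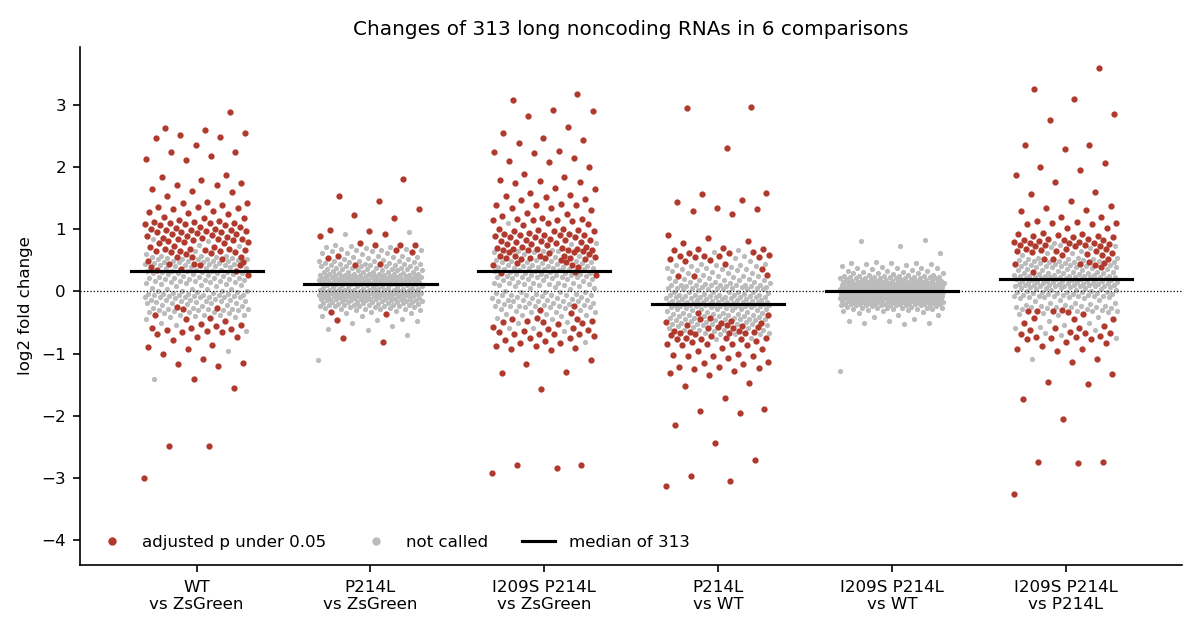
Log2 fold change (vertical axis) of each of the 313 long noncoding RNAs in the 6 comparisons; red points have an adjusted p under 0.05, grey points do not, and the bar is the median of 313. The median lies at 0.32 for ETV6 WT and 0.13 for ETV6 P214L against ZsGreen, and no point is red between ETV6 I209S P214L and ETV6 WT.

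Neat1, the paraspeckle scaffold, rose with all 3 constructs and by far less with ETV6 P214L. Neat1 lies at chr19:5874736-5895898 on the minus strand. It held 85.6, 89.1 and 111 CPM in the ZsGreen libraries, 394, 483 and 379 in ETV6 WT, 175, 133 and 145 in ETV6 P214L and 437, 468 and 465 in ETV6 I209S P214L. Every ETV6 P214L library lay above every ZsGreen library and below every ETV6 WT library, and the ranges of ETV6 WT and ETV6 I209S P214L overlapped. The log2 fold change against ZsGreen was 2.14 ± 0.11 with ETV6 WT (± SE of the fit, adjusted p = 1.4e-10), 0.66 ± 0.11 with ETV6 P214L (adjusted p = 0.0014) and 2.26 ± 0.12 with ETV6 I209S P214L (adjusted p = 5.6e-11).

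Between ETV6 P214L and ETV6 WT, Neat1 differed by -1.47 ± 0.11 (adjusted p = 1.7e-08). Per length its level was 4.48 ± 0.649 FPKM (SD of 3 libraries) with ZsGreen and 19.6 ± 2.71 with ETV6 WT. Frmd8, the nearest protein-coding gene, lies 3832 bases away and rose by 0.27 ± 0.10 with ETV6 WT.

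Malat1, the speckle RNA, did not pass the filtered edgeR test in any comparison, and its libraries were uneven. It lies at chr19:5845717-5852704 on the minus strand. The usual ends of Malat1 and of the long form of Neat1 carry no poly-A tail, so poly-A selection may miss part of both. Malat1 held 931, 1227 and 1556 CPM in the ZsGreen libraries, 781, 2608 and 2767 in ETV6 WT, 2159.9, 1665 and 1792 in ETV6 P214L and 763, 3698 and 3520.5 in ETV6 I209S P214L. The first libraries of ETV6 WT and ETV6 I209S P214L lay below every ZsGreen library, while the other 2 libraries of each lay above all of ZsGreen. The fitted log2 fold changes against ZsGreen were 0.73 ± 0.43, 0.60 ± 0.43 and 1.10 ± 0.44 in the order ETV6 WT, ETV6 P214L, ETV6 I209S P214L (adjusted p = 0.21, 0.52 and 0.051).

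Without the first libraries of ZsGreen, ETV6 WT and ETV6 I209S P214L, which also had the smallest share of ribosomal RNA rows, the same fit gave Malat1 0.94 ± 0.10 with ETV6 WT (adjusted p = 4.9e-07), 0.43 ± 0.09 with ETV6 P214L (adjusted p = 0.0073) and 1.36 ± 0.10 with ETV6 I209S P214L (adjusted p = 3.3e-09). Without ETV6 WT 1 alone the value with ETV6 WT was 1.12 (adjusted p = 0.024), and without ETV6 I209S P214L 1 alone the value with ETV6 I209S P214L was 1.54 (adjusted p = 0.00055). Over all libraries, DESeq2 and limma-voom did not call Malat1 against ZsGreen. Their adjusted p-values were 0.31 and 0.39 with ETV6 WT, 0.63 and 0.53 with ETV6 P214L and 0.082 and 0.20 with ETV6 I209S P214L. In edgeR without a filter on low counts, fold changes of about the same size were called with all 3 constructs (adjusted p of 9.7e-17 or less). That fit also called the uneven Gm10076 between ETV6 I209S P214L and ETV6 WT (adjusted p = 1.0e-10). The filtered fit gave Gm10076 0.82 ± 0.76 there and did not call it. Small p-values without the filter thus do not show even libraries. The part of the ribosomal RNA rows in the Malat1 values was not tested.

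**Figure D2:**
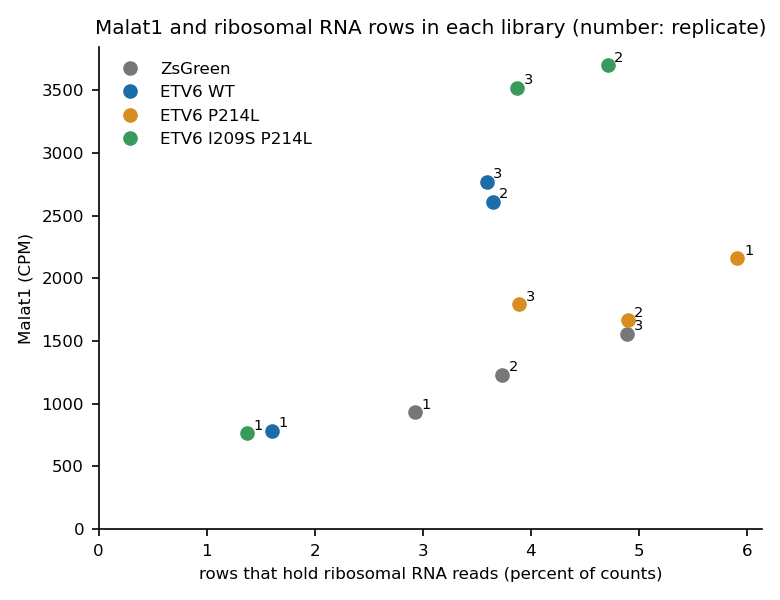
Malat1 level (CPM, vertical axis) against the share of counts in rows that hold ribosomal RNA reads (percent, horizontal axis) in the 12 libraries; colours are groups and numbers are replicates. The first libraries of ETV6 WT and ETV6 I209S P214L sit lowest on both axes, at 781 and 763 CPM.

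The first libraries of ZsGreen, ETV6 WT and ETV6 I209S P214L also stood apart over the 313 as a set. The second principal component of log2 CPM, the second-largest axis of spread between libraries, held 9.55% of the variance. On it these first libraries stood at 5.84, 3.77 and 2.99 in that order, and every other library at 1.57 or less. Few single RNAs passed a fixed cut in all 3 at once. Only 5 were at least 0.5 lower on the log2 scale in the first library of ZsGreen, ETV6 WT and ETV6 I209S P214L each, measured against the mean of the other 2 libraries: Malat1, Lncpint, Gm12610, Gm49747 and 5330426L24Rik. None was at least 0.5 higher in all 3. Taken singly, 15 were at least 1 lower in the first library of ZsGreen, 9 in ETV6 WT, 8 in ETV6 I209S P214L and 0 in ETV6 P214L. Gm28187, among the 10 highest per length, was not called against ZsGreen over all libraries. Without these first libraries it was called with all 3 constructs: 0.60 ± 0.06 with ETV6 WT, 0.28 ± 0.06 with ETV6 P214L and 0.56 ± 0.06 with ETV6 I209S P214L. Lncpint, a p53-induced transcript, held 0.395, 2.66 and 8.42 CPM in the ZsGreen libraries, 1.95, 6.21 and 7.76 in ETV6 WT, 7.35, 5.67 and 5.30 in ETV6 P214L and 2.42, 9.41 and 7.98 in ETV6 I209S P214L and was called nowhere. Its first libraries of ZsGreen, ETV6 WT and ETV6 I209S P214L were the 3 lowest of the 12.

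With ETV6 WT and ETV6 I209S P214L, the other well-studied transcripts moved less than Neat1. Kcnq1ot1, the antisense RNA of the imprinted Kcnq1 domain, was called higher, over all libraries, with ETV6 I209S P214L only (0.68 ± 0.26, adjusted p = 0.041); it held 23.1, 26.6 and 31.9 CPM in the ZsGreen libraries, 21.9, 43.5 and 44.2 in ETV6 WT, 41, 36.1 and 40.8 in ETV6 P214L and 24.8, 56.9 and 49.5 in ETV6 I209S P214L. The first libraries of ETV6 WT and ETV6 I209S P214L were again low, within or below the range of ZsGreen. DESeq2 and limma-voom did not call that change (adjusted p = 0.13 and 0.11). Without the first libraries of ZsGreen, ETV6 WT and ETV6 I209S P214L, Kcnq1ot1 was called with all 3 constructs: 0.57 ± 0.12 with ETV6 WT (adjusted p = 9.0e-04), 0.42 ± 0.11 with ETV6 P214L (adjusted p = 0.029) and 0.85 ± 0.12 with ETV6 I209S P214L (adjusted p = 1.4e-05). Oip5os1, also known as Cyrano, rose by 0.26 with ETV6 WT and 0.29 with ETV6 I209S P214L; the former call was lost without ZsGreen 1, ETV6 WT 2 or ETV6 WT 3 (adjusted p up to 0.092). Norad, which binds Pumilio proteins, was called with ETV6 I209S P214L alone (0.26, adjusted p = 0.041), and that call was lost in 12 of the alternative fits (adjusted p up to 0.56).

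Trp53cor1 (lincRNA-p21), a p53 target that lies near Cdkn1a, rose with all 3 constructs. It held 9.09, 8.93 and 9.38 CPM in the ZsGreen libraries, 17.7, 22.1 and 22.6 in ETV6 WT, 14.3, 17.3 and 14.5 in ETV6 P214L and 15.3, 18.6 and 19.6 in ETV6 I209S P214L, and no ZsGreen library overlapped with any other group. Its log2 fold changes against ZsGreen were 1.19 ± 0.15, 0.75 ± 0.15 and 0.96 ± 0.15. Cdkn1a, the cell cycle inhibitor 11797 bases away, was called higher with ETV6 P214L (0.35 ± 0.08) and not with ETV6 WT (adjusted p = 0.9984) or ETV6 I209S P214L (0.04 ± 0.08).

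Pvt1, a neighbour of the growth gene Myc, went the other way. It held 17.8, 18.7 and 20.4 CPM in the ZsGreen libraries, 11, 15.3 and 16.1 in ETV6 WT, 23.2, 19.6 and 20.1 in ETV6 P214L and 10.6, 11.4 and 15 in ETV6 I209S P214L. Every ETV6 WT and ETV6 I209S P214L library lay below every ZsGreen library. It was lower with ETV6 WT (-0.42 ± 0.16, adjusted p = 0.049) and with ETV6 I209S P214L (-0.62 ± 0.16, adjusted p = 0.0049) and not called with ETV6 P214L (0.14 ± 0.16). The call with ETV6 WT was lost in 12 of the alternative fits, among them those without ETV6 WT 1 or ETV6 WT 2 (adjusted p up to 0.22). Myc itself fell by 0.75 ± 0.09 with ETV6 WT and by 0.82 ± 0.09 with ETV6 I209S P214L.

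**Figure D3:**
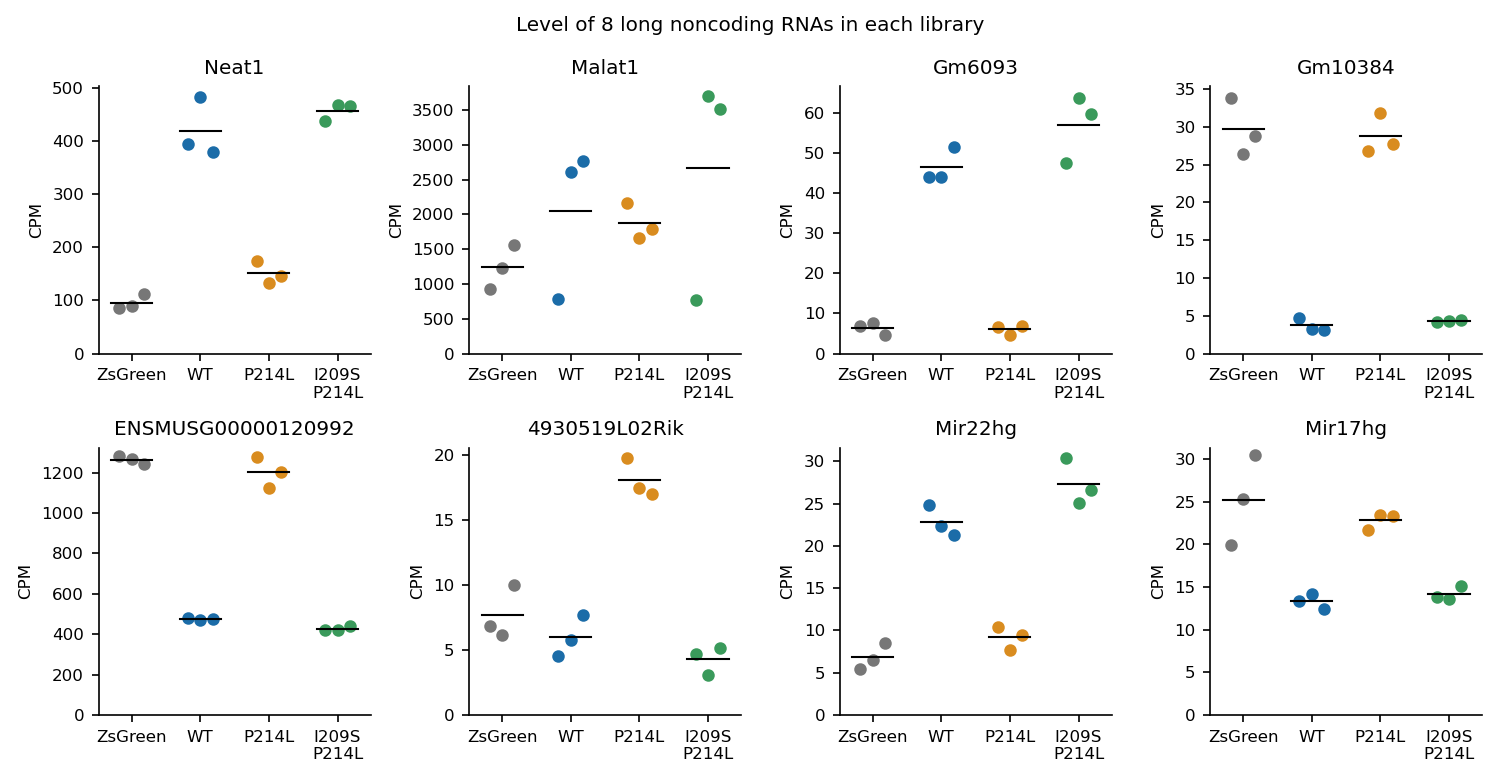
Level (CPM, vertical axis from 0) of 8 long noncoding RNAs in the 12 libraries, in the order of replicates within each group; the bar is the mean of 3. Neat1, Gm6093 and Mir22hg are high with ETV6 WT and ETV6 I209S P214L, Gm10384, ENSMUSG00000120992 and Mir17hg are low there, 4930519L02Rik is highest with ETV6 P214L at 17 to 19.8 CPM, and Malat1 is uneven within groups.

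Among the snoRNA hosts more fell than rose, unlike the 313 as a whole. Of 14 hosts by name, 7 were lower and 1 higher with ETV6 WT (median log2 fold change -0.31), 0 were called with ETV6 P214L (median -0.04) and 7 were lower and 1 higher with ETV6 I209S P214L (median -0.33). Of all genes, 18.2% were lower and 19.5% higher with ETV6 WT, and 20.7% lower and 20.8% higher with ETV6 I209S P214L. With ETV6 P214L 5.08% of all genes were called, so 0 calls among 14 do not set the hosts apart. Without the first libraries of ZsGreen, ETV6 WT and ETV6 I209S P214L, 4 were lower with ETV6 WT, 8 were lower with ETV6 I209S P214L and 0 were called with ETV6 P214L; Dancr, Snhg15 and Snhg17 were the 3 no longer called with ETV6 WT. For the count of 0 with ETV6 P214L by edgeR, DESeq2 called 0 and limma-voom 0, and 1 of 14 had an unadjusted edgeR p under 0.05.

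Snhg5, which carries Snord50a and Snord50b, held 95.5, 85.6 and 89.1 CPM in the ZsGreen libraries, 51.8, 54.7 and 61.4 in ETV6 WT, 76.7, 87.1 and 84 in ETV6 P214L and 55.6, 55.8 and 62.1 in ETV6 I209S P214L. Its ETV6 WT and ETV6 I209S P214L libraries lay below all of ZsGreen and ETV6 P214L, and it fell by 0.69 ± 0.08 with ETV6 WT (adjusted p = 4.3e-06). Gas5, whose introns hold 10 snoRNA rows and which accumulates when growth stops, fell by 0.63 ± 0.17 (adjusted p = 0.0077). Snhg1 with 8 snoRNA rows fell by 0.53 ± 0.09, and Dancr by 0.59 ± 0.20. Snhg4 was also called lower, but its symbol belongs to an overlapping protein-coding row as well, so the split of reads between them is uncertain.

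Snhg20 was the exception. It held 10.8, 13 and 14.6 CPM in the ZsGreen libraries, 29.1, 30.1 and 19.9 in ETV6 WT, 18.4, 17.4 and 18.8 in ETV6 P214L and 33.8, 19 and 18.9 in ETV6 I209S P214L and was called higher with ETV6 WT (1.04 ± 0.21) and with ETV6 I209S P214L (0.91 ± 0.21); the latter call was lost without the first libraries. Zfas1, Snhg6, Snhg8 and Snhg12 were called in none of the comparisons. Zfas1, named after its values were seen, held 49.1, 53.5 and 59.96 CPM in the ZsGreen libraries, 55.1, 53.4 and 47.2 in ETV6 WT, 53.4, 54.1 and 54.3 in ETV6 P214L and 59.2, 46.8 and 45.5 in ETV6 I209S P214L, with overlap of all groups.

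By position the class is wider: 21 of the 313 hold a snoRNA or scaRNA row on their own strand, a class formed after their values were seen. With ETV6 WT 9 of the 21 were lower and 1 higher, and with ETV6 I209S P214L 10 were lower and 1 higher. The shares of all genes were 18.2% lower and 19.5% higher with ETV6 WT, and 20.7% and 20.8% with ETV6 I209S P214L. AI506816, chosen here after its values were seen, held 244, 264 and 276 CPM in the ZsGreen libraries, 155, 148 and 153 in ETV6 WT, 217, 218 and 235 in ETV6 P214L and 143, 130.3 and 133 in ETV6 I209S P214L and fell by 0.78 ± 0.07 with ETV6 WT. The ETV6 WT and ETV6 I209S P214L libraries of this RNA did not overlap with the other groups. 1110038B12Rik, which holds Snord52, fell by 0.59 ± 0.10.

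Genes of the proteins that snoRNAs work with were also called lower. Of 16 genes of snoRNA-protein particles, 13 were lower with ETV6 WT, 5 with ETV6 P214L and 15 with ETV6 I209S P214L, and none was higher. These are 81.2%, 31.2% and 93.8% of the list, where 18.2%, 1.61% and 20.7% of all genes were lower. Nop56, a core protein of box C/D particles, fell by 0.90 ± 0.06 with ETV6 WT, and Nolc1, a chaperone of snoRNA particles, by 0.99 ± 0.06. Dkc1, the pseudouridine synthase of box H/ACA particles, fell by 0.88 ± 0.07. With ETV6 P214L the values were -0.25 ± 0.06 for Nop56 and -0.21 ± 0.07 for Dkc1, of which only that of Nop56 was called.

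**Figure D4:**
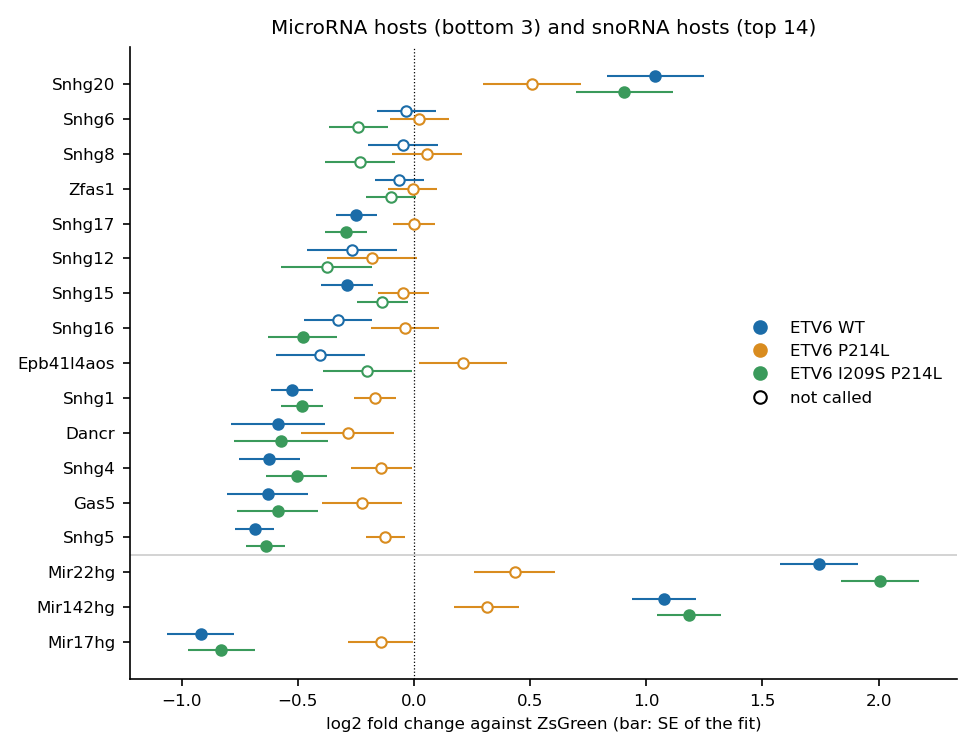
Log2 fold change against ZsGreen (horizontal axis) of the 14 snoRNA hosts (top) and 3 microRNA hosts (bottom), for ETV6 WT, ETV6 P214L and ETV6 I209S P214L; bars are SE of the fit and open circles were not called. All ETV6 P214L circles are open, while 7 snoRNA hosts are filled on the negative side with ETV6 WT.

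The 3 microRNA hosts by name all changed with ETV6 WT and ETV6 I209S P214L, in both directions, where 37.7% and 41.5% of all genes were called. Mir22hg, at chr11:75352365-75357502 on the plus strand, held 5.42, 6.46 and 8.54 CPM in the ZsGreen libraries, 24.8, 22.3 and 21.3 in ETV6 WT, 10.5, 7.68 and 9.48 in ETV6 P214L and 30.4, 25 and 26.6 in ETV6 I209S P214L. All ETV6 WT and ETV6 I209S P214L libraries lay above the other 6, and those of ETV6 P214L overlapped with ZsGreen. Its log2 fold change was 1.74 ± 0.17 with ETV6 WT and 2.01 ± 0.17 with ETV6 I209S P214L, and 0.43 ± 0.17 with ETV6 P214L, which was not called. Its span overlaps Tlcd2 on the same strand, a gene at 0 to 2.37 CPM.

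Mir142hg, the host of the blood-cell microRNA miR-142, held 24.2, 27.2 and 26.7 CPM in the ZsGreen libraries, 50.6, 64 and 49.9 in ETV6 WT, 33.9, 30.01 and 33.1 in ETV6 P214L and 45.3, 67.8 and 64.4 in ETV6 I209S P214L. It rose by 1.07 ± 0.14 with ETV6 WT (adjusted p = 6.5e-06) and by 1.18 ± 0.14 with ETV6 I209S P214L, and all libraries of these groups lay above the others. Mir17hg, the host of the growth-promoting miR-17-92 cluster, at chr14:115280311-115284159 on the plus strand, held 19.9, 25.3 and 30.4 CPM in the ZsGreen libraries, 13.4, 14.2 and 12.4 in ETV6 WT, 21.7, 23.4 and 23.3 in ETV6 P214L and 13.8, 13.6 and 15.1 in ETV6 I209S P214L. It fell by 0.92 ± 0.14 with ETV6 WT (adjusted p = 5.4e-05) and by 0.83 ± 0.14 with ETV6 I209S P214L. Its ZsGreen and ETV6 P214L libraries overlapped, and the other 2 groups lay below both.

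The main mature microRNAs of these hosts are shown because they are what the changing transcripts carry (RefSeq, GRCm38.p6). Capitals mark the seed, bases 2 to 8, with which a microRNA pairs to its targets:
mmu-miR-22-3p: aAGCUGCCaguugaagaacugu
mmu-miR-142a-5p: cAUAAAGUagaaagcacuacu
mmu-miR-142a-3p: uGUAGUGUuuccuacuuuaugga
mmu-miR-17-5p: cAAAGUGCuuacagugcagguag
mmu-miR-20a-5p: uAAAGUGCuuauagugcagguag
mmu-miR-18a-5p: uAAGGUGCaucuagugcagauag
mmu-miR-19a-3p: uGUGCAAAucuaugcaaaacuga
mmu-miR-19b-3p: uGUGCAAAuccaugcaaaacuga
mmu-miR-92a-3p: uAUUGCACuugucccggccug

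Inside the Mir17hg cluster, miR-17-5p and miR-20a-5p share the seed AAAGUGC, and miR-19a-3p and miR-19b-3p share GUGCAAA. The seed of miR-18a-5p is AAGGUGC. No seed is shared between the rising hosts Mir22hg and Mir142hg and the falling Mir17hg. These libraries measure the host transcripts and not the mature microRNAs.

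By position, 11 of the 313 hold a microRNA row on their own strand. With ETV6 WT 4 of them were higher and 2 lower. Of all genes, 19.5% were higher and 18.2% lower, and of the 313, 111 were higher and 34 lower. Dleu2, which holds Mir15a and Mir16-1, held 7.56, 9.93 and 12.6 CPM in the ZsGreen libraries, 7.51, 12.4 and 11.8 in ETV6 WT, 11.4, 8.86 and 12.6 in ETV6 P214L and 9.18, 8.79 and 10.6 in ETV6 I209S P214L and was not called in any comparison; its groups overlapped. 6720427I07Rik and Lncppara, which hold let-7 genes, were not called either. Gm15987, chosen here after its values were seen, was the only one of the 11 called with ETV6 P214L (1.19 ± 0.29), where 5.08% of all genes were called.

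RefSeq promoters, 250 bases before to 50 after the annotated start, were at hand for 155 of the 313 by symbol or gene identifier (181 windows). Those of Mir22hg and Gm33280, which rose, and of Snhg5, which fell, are shown because ETS factors bind GGAA; capitals mark GGAA or its reverse complement TTCC (GRCm38.p6; Mir22hg chr11:75461289-75461588, plus strand; Gm33280 chr1:36131735-36132034, plus strand; Snhg5 chr9:88522848-88523147, minus strand):
Mir22hg: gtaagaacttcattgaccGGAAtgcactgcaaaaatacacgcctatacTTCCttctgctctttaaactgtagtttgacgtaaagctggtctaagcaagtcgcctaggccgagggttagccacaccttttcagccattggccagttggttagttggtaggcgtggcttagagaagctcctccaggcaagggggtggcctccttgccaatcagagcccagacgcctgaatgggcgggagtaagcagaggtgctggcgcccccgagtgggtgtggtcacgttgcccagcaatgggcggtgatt
Gm33280: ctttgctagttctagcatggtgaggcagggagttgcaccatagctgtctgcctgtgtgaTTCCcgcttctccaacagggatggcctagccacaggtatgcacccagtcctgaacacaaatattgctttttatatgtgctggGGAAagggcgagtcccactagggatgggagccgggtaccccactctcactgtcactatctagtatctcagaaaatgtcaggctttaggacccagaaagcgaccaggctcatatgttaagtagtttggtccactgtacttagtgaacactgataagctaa
Snhg5: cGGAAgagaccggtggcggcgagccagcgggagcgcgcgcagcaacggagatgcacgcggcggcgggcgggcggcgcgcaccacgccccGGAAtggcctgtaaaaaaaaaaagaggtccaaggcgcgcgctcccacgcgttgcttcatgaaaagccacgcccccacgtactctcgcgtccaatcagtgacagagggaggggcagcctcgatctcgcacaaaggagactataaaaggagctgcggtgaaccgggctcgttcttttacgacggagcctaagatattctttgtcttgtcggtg

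The core word GGAA was found on either strand in 96.7% of the windows of the long noncoding RNAs and in 96% of all 32851 promoters of the table. The longer word CCGGAA, which contains GGAA, was found in 27.1%, against 14.9% of all promoters. CCGGAAGT, which contains both, was found in 5.52%, against 3.89%. All promoters include those of genes not expressed here. Promoters of expressed genes alone were not counted, so these differences cannot be assigned to long noncoding RNAs. Among RNAs called higher with ETV6 WT, 13 of 62 windows (21%) held CCGGAA, among those called lower 4 of 23 (17.4%), and among those not called 32 of 96 (33.3%). The windows of Mir22hg and Snhg5 each hold CCGGAA once and that of Gm33280 does not. A match is only a run of letters in the window.

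The largest changes belonged to unnamed gene models. Gm6093, at chr13:33746469-33753300 on the minus strand, rose by 2.89 ± 0.18 with ETV6 WT (adjusted p = 9.0e-10) and held 6.77, 7.53 and 4.63 CPM in the ZsGreen libraries, 44.1, 44.2 and 51.5 in ETV6 WT, 6.51, 4.55 and 6.93 in ETV6 P214L and 47.5, 63.8 and 59.7 in ETV6 I209S P214L. Its ETV6 P214L libraries lay within the range of ZsGreen but for the lowest, at 4.55 CPM. C430002N11Rik, which lies 12731 bases from the zinc finger gene Zbtb38, rose by 2.63 ± 0.30, and Zbtb38 by 1.04 ± 0.08. The 10 largest rises with ETV6 WT ran from 2.23 to 2.89 on the log2 scale.

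Several of these sit beside a gene that changed as well. Gm49774 runs opposite to Hmga1, a chromatin architecture gene, and held 11.1, 11.2 and 11.9 CPM in the ZsGreen libraries, 79.5, 66.2 and 50.4 in ETV6 WT, 11.8, 10.2 and 7.98 in ETV6 P214L and 103, 70.1 and 82.8 in ETV6 I209S P214L. Its ETV6 P214L libraries overlapped with ZsGreen and the other 2 groups lay far above both. It rose by 2.52 ± 0.17 with ETV6 WT and Hmga1 by 0.85 ± 0.13. Ttc39aos1, which starts on the other strand from Ttc39a, rose by 2.60 ± 0.18 and Ttc39a by 1.96 ± 0.40. ENSMUSG00000120276 rose by 2.48 ± 0.24 and its opposite-strand partner 1810058I24Rik by 0.92 ± 0.07.

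Gm19385, 62460 bases from Ctnnb1, the gene of beta-catenin, rose by 2.54 ± 0.25 and Ctnnb1 by 1.42 ± 0.06. Others had a neighbour that stayed uncalled or went the other way. Gm33280 rose by 2.46 ± 0.18, while Uggt1, 1281 bases away, stood at 0.01 ± 0.07. Gm32401 rose by 2.23 ± 0.24, and Nedd9, on the opposite strand, fell by 0.42 ± 0.10. Gm33699 rose by 2.35 ± 0.22 with ETV6 WT and stood at -0.70 ± 0.25 with ETV6 P214L.

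Among the falls, Gm10384 changed most. It lies at chr15:36870744-36880121 on the minus strand and held 33.9, 26.4 and 28.7 CPM in the ZsGreen libraries, 4.76, 3.25 and 3.14 in ETV6 WT, 26.8, 31.8 and 27.8 in ETV6 P214L and 4.14, 4.25 and 4.48 in ETV6 I209S P214L, with no overlap between ETV6 WT and ZsGreen, and fell by 3.00 ± 0.17 (adjusted p = 2.5e-10). ENSMUSG00000119972 fell by 2.49 ± 0.21 and C030034L19Rik by 2.49 ± 0.29. The smallest of the 10 largest falls was that of Gm17094, -1.002 ± 0.27.

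ENSMUSG00000120992 joined a large fall with a high level. It lies at chr17:35215654-35219393 on the minus strand and held 1281, 1266 and 1241 CPM in the ZsGreen libraries, 480.2, 468 and 478 in ETV6 WT, 1277, 1124 and 1205 in ETV6 P214L and 422, 421 and 439 in ETV6 I209S P214L. The spread within groups was small and ETV6 WT and ETV6 I209S P214L lay far below the others: the log2 fold change was -1.41 ± 0.06 with ETV6 WT, -1.56 ± 0.06 with ETV6 I209S P214L and -0.07 ± 0.06 with ETV6 P214L. It starts on the other strand within 1 kb of Vars, the valyl-tRNA synthetase gene, which fell by 0.94 ± 0.12 with ETV6 WT. Per length the RNA fell from 413 ± 7.25 to 154 ± 1.496 FPKM (SD of 3 libraries).

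Over the whole set, 278 had a nearest protein-coding gene that was also tested. Of the 130 of these called with ETV6 WT, the neighbour was called in the same direction in 65, in the opposite direction in 16 and not called in 49. Of all protein-coding genes tested, 22.6% were called higher and 22.3% lower in this comparison. With ETV6 P214L 25 were called, with 8 neighbours in the same direction, 0 in the opposite direction and 17 not called; of all protein-coding genes 4.16% were higher and 2.04% lower. For overlapping pairs, reads of the strands cannot be told apart.

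With ETV6 P214L, Gm6209 rose most. It held 3.10, 3.26 and 2.77 CPM in the ZsGreen libraries, 11, 14.3 and 18 in ETV6 WT, 10.7, 10.8 and 10.5 in ETV6 P214L and 9.99, 15.5 and 13.6 in ETV6 I209S P214L, with all ZsGreen libraries below the others, and its log2 fold change was 1.81 ± 0.22 with ETV6 P214L and 2.24 ± 0.22 with ETV6 WT. Slc7a11, the cystine transporter gene 72785 bases away, rose by 1.82 ± 0.10 and 1.64 ± 0.10. Gm20658 rose by 1.33 ± 0.12 with ETV6 P214L and 1.86 ± 0.12 with ETV6 WT, and the difference between these constructs was itself called (-0.54 ± 0.11).

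A few RNAs were highest with ETV6 P214L. 4930519L02Rik, at chr3:142722884-142747335 on the plus strand, held 6.83, 6.13 and 10.04 CPM in the ZsGreen libraries, 4.58, 5.76 and 7.71 in ETV6 WT, 19.8, 17.5 and 17 in ETV6 P214L and 4.73, 3.07 and 5.16 in ETV6 I209S P214L. It rose by 1.24 ± 0.23 against ZsGreen (adjusted p = 0.0036) and stood 1.58 ± 0.24 above ETV6 WT and 2.06 ± 0.24 above ETV6 I209S P214L. All 3 ETV6 P214L libraries lay above the other 9. Against ZsGreen it was lower with ETV6 I209S P214L (-0.82 ± 0.25), a call lost without ZsGreen 3 and without ETV6 I209S P214L 2.

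ENSMUSG00000120198, on the strand opposite to Cd47, held 13, 17.1 and 13.4 CPM in the ZsGreen libraries, 35.2, 31.9 and 20.05 in ETV6 WT, 46.6, 42 and 37 in ETV6 P214L and 29.9, 22 and 18.3 in ETV6 I209S P214L. The ETV6 P214L libraries were the 3 highest and all ZsGreen libraries lay below the rest. It rose by 1.53 ± 0.20 with ETV6 P214L and by 1.00 ± 0.20 with ETV6 WT. Cd47, a surface protein that restrains phagocytosis, rose by 0.68 ± 0.06 and 0.31 ± 0.06. ENSMUSG00000120159, near the transcription factor gene Nfil3, rose by 1.45 ± 0.32 with ETV6 P214L, and Nfil3 by 0.36 ± 0.09; the former call was lost without ETV6 P214L 1 (adjusted p = 0.051).

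Of the 5 RNAs lower with ETV6 P214L, Gm45353 fell by 0.82 ± 0.16, Gm12602 by 0.74 ± 0.19, Gm10419 by 0.45 ± 0.12 and ENSMUSG00000120144 by 0.36 ± 0.10. ENSMUSG00000121093 was called in opposite directions. It held 224, 227 and 230.1 CPM in the ZsGreen libraries, 328, 379 and 414 in ETV6 WT, 176, 175 and 193 in ETV6 P214L and 364, 433 and 444 in ETV6 I209S P214L, with ETV6 P214L below ZsGreen and the other 2 groups above it. Its log2 fold change was -0.32 ± 0.09 with ETV6 P214L (adjusted p = 0.037), 0.72 ± 0.09 with ETV6 WT and 0.87 ± 0.09 with ETV6 I209S P214L. The fall was not called when any single library of ZsGreen or ETV6 P214L was left out (adjusted p up to 0.15). Those of Gm12602, Gm10419 and ENSMUSG00000120144 were not called without any single ETV6 P214L library (adjusted p up to 0.14, 0.14 and 0.20).

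For ETV6 I209S P214L against ETV6 WT, edgeR called 0 of 313 at an adjusted p of 0.05, and DESeq2 and limma-voom called 0 as well. At an unadjusted p under 0.05, edgeR had 15 (4.79%, against 3.46% of all genes), DESeq2 13 and limma-voom 21. Without a filter on low counts edgeR called 3: Malat1, Gm10076 and Gm20186. The authors' deposited table also calls 0 of these RNAs. Libraries of the 2 groups did not overlap for 27 RNAs (8.63%, against 8.33% of all genes).

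A missed threshold does not show equal levels, so the intervals are given. The median size of the difference was 0.13 on the log2 scale and the median SE 0.20. For 136 of the 145 RNAs changed by ETV6 WT, the 95% interval of the difference lay within 1 log2 of 0, and for 59 within 0.5. The smallest p was that of Gm20186, 0.47 ± 0.13 (adjusted p = 0.62). Farther from 0 stood Gm29677, at 2.62, 3.88 and 2.29 CPM with ETV6 WT and 1.61, 0.628 and 1.29 with ETV6 I209S P214L, a difference of -1.29 ± 0.36 (adjusted p = 0.69).

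The effect of adding I209S to P214L can be set beside that of ETV6 WT without sharing a library. ETV6 I209S P214L against ETV6 P214L and ETV6 WT against ZsGreen use different groups. Sharing no library does not make them independent. Over all genes tested, same-numbered libraries of ETV6 WT and ETV6 I209S P214L had deviations from group means that correlated at 0.53, 0.08 and 0.25. The part of this in the values below was not tested. Across the 313 RNAs the log2 fold changes of these comparisons had a Pearson r of 0.86 and a Spearman rho of 0.81, where 11312 protein-coding genes gave 0.78 and 0.78; RNAs are not independent replicates, and all come from the same fit. Of the 111 called higher with ETV6 WT, 67 were also called higher with I209S added (60.4% of the first list, 85.9% of the second). Among protein-coding genes these shares were 69.3% and 81.7%. Of the 34 called lower, 27 were (79.4% and 65.9%), against 74% and 79.3% of protein-coding genes.

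Gm6209, Gm20658 and Neat1, which rose with ETV6 P214L, had smaller values when I209S was added than with ETV6 WT. Since they were picked for that rise and were not called between ETV6 I209S P214L and ETV6 WT, smaller values largely follow from the choice. These differences of differences were not tested. Gm6209 stood at 0.28 ± 0.20 with I209S added and Gm20658 at 0.91 ± 0.11, against 2.24 ± 0.22 and 1.86 ± 0.12 with ETV6 WT. Neat1 stood at 1.60 ± 0.11, against 2.14 ± 0.11. 4930519L02Rik fell by 2.06 ± 0.24 with I209S added and was not called with ETV6 WT.

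**Figure D5:**
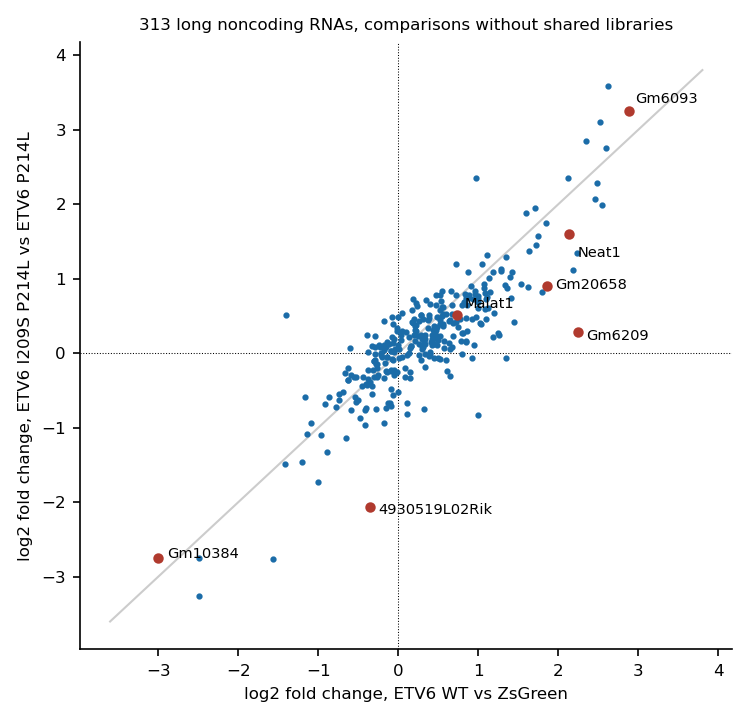
Log2 fold change of 313 long noncoding RNAs with ETV6 WT against ZsGreen (horizontal axis) and with ETV6 I209S P214L against ETV6 P214L (vertical axis), comparisons that share no library; the grey line marks equal values and 7 named RNAs are red. Gm6093 and Gm10384 lie near the line at its ends, Gm6209 and Gm20658 below it, and 4930519L02Rik far below it.

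Among the other RNAs, 5 had levels most like those of Neat1 by Pearson r of log2 CPM over the 12 libraries, which share groups and depth: A530010L16Rik (0.99), Mir22hg (0.98), ENSMUSG00000120276 (0.98), Gm32401 (0.98) and Gm33280 (0.97). A530010L16Rik held 32.7, 32.4 and 35.7 CPM in the ZsGreen libraries, 65.4, 69.7 and 65.2 in ETV6 WT, 40.1, 37.5 and 40.9 in ETV6 P214L and 66.6, 65.6 and 68.9 in ETV6 I209S P214L. Its ETV6 P214L libraries lay just above those of ZsGreen, a step of 0.23 ± 0.08 that was not called, and the other 2 groups lay far above both and overlapped with each other.

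Genes of the proteins that act on such RNAs were counted from lists drawn up with earlier results in view. Of 21 genes of paraspeckle and speckle proteins, 13 were lower and 1 higher with ETV6 WT, 0 were called with ETV6 P214L and 15 were lower and 2 higher with ETV6 I209S P214L. In all 66.7%, 0% and 81% were called, against 37.7%, 5.08% and 41.5% of all genes. For the count of 0 with ETV6 P214L by edgeR, DESeq2 called 4 and limma-voom 1, and 8 of 21 had an unadjusted edgeR p under 0.05. The splicing factor gene Srsf2 fell by 0.59 ± 0.06, and the RNA-binding protein gene Tardbp by 0.46 ± 0.06, with ETV6 WT, while the scaffold Neat1 rose. Of 22 genes of the RNA exosome and nuclear decay, 12 were lower and 4 higher with ETV6 WT, 1 was lower with ETV6 P214L, and 13 were lower and 4 higher with ETV6 I209S P214L, or 72.7%, 4.55% and 77.3% of the list. Exosc8 and Dis3, a core subunit and a nuclease of the exosome, fell by 1.08 ± 0.09 and 0.90 ± 0.10.

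Nonsense-mediated decay gave a mixed count. Of 19 genes, 3 were higher and 4 lower with ETV6 WT, 1 was lower with ETV6 P214L, and 3 were higher and 4 lower with ETV6 I209S P214L. These shares, 36.8%, 5.26% and 36.8%, are near or below the 37.7%, 5.08% and 41.5% of all genes. Magoh, of the exon junction complex, fell by 0.72 ± 0.10 with ETV6 WT and Smg5, an adaptor of the decay machinery, fell by 0.42 ± 0.08, while the exonuclease gene Xrn1 rose by 0.39 ± 0.10. Of 14 genes of microRNA processing, 2 were higher and 2 lower with ETV6 WT, 0 were called with ETV6 P214L, and 3 were higher and 3 lower with ETV6 I209S P214L, or 28.6%, 0% and 42.9% of the list. For the count of 0 with ETV6 P214L by edgeR, DESeq2 called 0 and limma-voom 0, and 2 of 14 had an unadjusted edgeR p under 0.05. Dgcr8, the partner of Drosha, fell by 0.38 ± 0.10 with ETV6 WT, and the helicase genes Ddx17 and Ddx5 rose by 0.45 ± 0.06 and 0.23 ± 0.06.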

How the data were processed

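Poly-A selected RNA of 12 libraries, 3 for each of 4 constructs, was measured by sequencing, and the authors deposited 1 table of raw read counts per gene, with FPKM values, log2 fold changes and p-values. Per the submitters' processing notes, HISAT2 2.0.5, featureCounts 1.5.0-p3 and build mm39 were used. The strand setting, the handling of reads that match several genes and the tool behind the deposited log2 fold changes and p-values are not given in the sources used here. FPKM, in the authors' deposited columns, served only to compare levels between genes.

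Counts as deposited were fitted with edgeR 4.0.16 in R 4.3.3: filterByExpr left 14794 genes, TMM scaled the libraries, and a quasi-likelihood model with a mean per group was fitted over all 12 libraries. P-values were adjusted by Benjamini and Hochberg over all genes tested, and an adjusted p under 0.05 is a call. CPM uses TMM-scaled totals, and fold changes are those of the fit. Alternatives were DESeq2 1.42.0, limma-voom (limma 3.58.1), other scaling, no filter, fits of 2 groups, a replicate block, leaving out libraries, other count thresholds and RNAs that overlap no protein-coding gene; leaving out 3 first libraries together was added after the data were seen. The model was tested on simulated data with changes in ETV6 WT against ZsGreen. Among genes with at least 1000 counts it recovered 62 of 62 simulated 4-fold and 71 of 74 2-fold changes. Simulated counts followed the model's own fitted spread, with no deviation shared between libraries. This checks the code and cannot show how the model handles the uneven first libraries.

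The long noncoding RNAs and the gene lists were chosen with earlier results of these data known. Named are Neat1 and Malat1, the called or highly expressed hosts and nuclear RNAs, the 10 largest rises and falls without overlap between groups with ETV6 WT, 5 of each in other comparisons, the 10 highest per length, those next to the threshold, up to 4 genes per list, nearest protein-coding genes and the 5 most like Neat1. Zfas1, Snhg6, Snhg12, Dleu2, 6720427I07Rik, Lncppara, Lncpint, Gm12610, Gm49747, 5330426L24Rik, Gm15987, AI506816 and 1110038B12Rik were named after their values were seen. Some marker genes are not reported here.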

Additional observations from a re-analysis of the deposited data

How the results depend on the processing

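Of 174 calls of named RNAs, 0 reversed and 139 held in every setting, and 195 of 3654 alternative values were not called. With a summed count of at least 3000, 64, 13 and 67 RNAs of 102 were called with ETV6 WT, ETV6 P214L and ETV6 I209S P214L against ZsGreen, 49 and 51 for ETV6 P214L against ETV6 WT and against ETV6 I209S P214L, and 67 in the test of any difference. Of the 184 that overlap no protein-coding gene these counts were 93, 16, 99, 67, 74 and 101. In both cases fewer RNAs entered. Of all genes 37.7%, 5.08%, 41.5%, 29.2%, 33% and 41% were called in the same order. The share called rose with the count threshold. At minima of 500 and 3000 counts it was 36.4% and 62.7% with ETV6 WT, 5.05% and 12.7% with ETV6 P214L, and 40.7% and 65.7% with ETV6 I209S P214L. With a summed count of at least 500, 202, 28 and 226 of 555 were called against ZsGreen. Without a filter on low counts, ETV6 P214L against ZsGreen gave 40 calls and ETV6 I209S P214L against ETV6 WT gave 3; the cause was not tested. Leaving out single libraries gave 124 to 147, 10 to 30 and 140 to 166 calls against ZsGreen, 77 to 114 for ETV6 P214L against ETV6 WT, 0 for ETV6 I209S P214L against ETV6 WT, 92 to 128 for ETV6 I209S P214L against ETV6 P214L and 135 to 165 for any difference. Without rows that hold ribosomal RNA reads, the mean share of counts held by the 313 with ETV6 P214L was 1.056% in place of 1.005%. The authors' deposited table calls 121, 28 and 124 of the 313 with ETV6 WT, ETV6 P214L and ETV6 I209S P214L against ZsGreen. The edgeR fit called 145, 25 and 160, and both called 121, 21 and 124. For ETV6 P214L against ETV6 WT the deposited count is 118, and edgeR gave 105. For ETV6 I209S P214L against ETV6 P214L these counts are 122 and 119.

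The labels do not say whether replicate numbers pair the libraries, and the main fit did not pair them. Correlations of deviations from group means ran from -0.06 to 0.53 for same-numbered libraries and from -0.39 to 0.16 for the others. The highest were 0.53 for ETV6 WT 1 with ETV6 I209S P214L 1 and 0.25 for ETV6 WT 3 with ETV6 I209S P214L 3. Whether these numbers mark a shared batch was not tested. With the replicate block, 150, 31 and 171 RNAs were called with ETV6 WT, ETV6 P214L and ETV6 I209S P214L against ZsGreen. With 3 libraries a group, small changes of RNAs near 1000 counts are measured poorly.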
